A study of Macaca mulatta with 13 samples.

Results

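The genes described here encode TGF-beta1 (TGFB1), both of its signalling receptors (TGFBR1 and TGFBR2), the SMAD proteins SMAD2, SMAD3, SMAD4, SMAD5 and SMAD7, and the SMAD-binding repressor SKI. The members were all probe sets that the array's annotation paired with exactly 1 of these 9 symbols, which gave 25 of 52707 non-control probe sets, for 9 of 14132 genes so named. A probe set is a group of short probes that reads 1 transcript region. Of the 25, 18 were bright enough to be tested and 7 were not: both probe sets of TGFB1, 1 of SMAD2, 1 of SMAD3 and 3 of SMAD5.

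The samples were peripheral blood mononuclear cells (PBMC), a mixture of T cells, B cells, NK cells, monocytes and rarer cells, from rhesus macaques aged 4 months, with total RNA from each sample hybridised to 1 Affymetrix rhesus genome array. The study asked whether early rearing goes with different gene expression, and its labels give 4 surrogate-peer-reared, 4 peer-reared and 5 maternally reared samples. No treatment, genotype or sex was given for any group. Peer rearing replaces the mother with other infants, and surrogate-peer rearing commonly adds an inanimate surrogate, although the labels do not describe the housing used here. Peer and surrogate-peer samples together are called non-maternal below. Nothing in the labels says whether animals shared a parent, a cage or a rearing cohort, so the p-values measure only the spread between these samples.

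TGF-beta1 is a cytokine that is secreted in a latent form and held inactive until it is released. The active ligand binds TGFBR2, which phosphorylates TGFBR1, which in turn phosphorylates SMAD2 and SMAD3; these join SMAD4 and enter the nucleus to regulate transcription. SMAD7 is induced by the pathway and blocks the receptors, SKI represses SMAD complexes on DNA, and SMAD5 belongs to the branch used by bone morphogenetic proteins (BMPs). These roles are known mainly from human and mouse cells. In blood cells the pathway is known for restraining T cell activation and for supporting regulatory T cells.

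All values are log2 expression values made by robust multi-array average (RMA), and a difference of 1 is a doubling in fluorescence-derived level. Over all probe sets, array medians did not overlap, with non-maternal arrays at 5.995 to 6.04 and maternal arrays at 6.05 to 6.06. Over the tested probe sets alone the order was reversed, with non-maternal arrays at 7.73 to 7.76 and maternal arrays at 7.65 to 7.71. The spread of probe set values on an array was smaller in the maternal group, with SDs of 2.13 to 2.16 on the 8 non-maternal arrays against 2.10 to 2.12 on the 5 maternal arrays. The log2 ratio of 3′ to 5′ control probes for actin and GAPDH, a sign of RNA quality, averaged 1.45 ± 0.14 in non-maternal and 1.85 ± 0.28 in maternal samples (SD, n = 8 and 5). The ranges overlapped, at 1.31 to 1.74 in non-maternal and 1.56 to 2.22 in maternal samples. Maternal samples 2 and 5 had the lowest ratios of the maternal group, at 1.56 and 1.59. PBMC markers were bright: group means were 11.08, 11.04 and 11.90 for CD14 of monocytes and 10.90, 11.88 and 12.09 for MS4A1 of B cells in surrogate-peer, peer and maternal samples. No probe set was paired with CD3D or CD3E alone, so the T cells were judged from CD5 and 5 other genes. Levels of different probe sets are not compared below, since probes differ in how well they bind.

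Among the members, SMAD4 and TGFBR2 rose in non-maternal samples relative to maternal samples, each by about 1.4-fold and each at 1 of its 2 probe sets. Thus 2 of 18 tested member probe sets passed an adjusted p of 0.05 in limma's moderated test, both of them upward, and none fell. The SMAD4 probe set entered the test only through its non-maternal values, as given with its values below, so its count is no support for a difference. Over all 26352 tested probe sets, 8% passed in either direction and 6.64% passed upward. The log2 difference was positive at 16 of 18 members, with a median of 0.25, against 51% of all tested probe sets and a median of 0.01. After centring each array on its median 13 of 18 were positive, with a median of 0.18 against -0.06 over all tested probe sets. After quantile normalization 15 were positive, with a median of 0.18 against -0.02. Under a stricter brightness filter the median was 0.32 for 10 members and 0.09 for all tested probe sets. An unadjusted p under 0.05 was reached by 10 of 18 members and by 29% of all tested probe sets. The 18 are not independent readings, since they come from 8 genes on the same arrays. The counts of positive members and of members at an unadjusted p under 0.05 also include the SMAD4 probe set named above. The members were chosen with earlier results of these data known, so these counts are no support for a rise of the whole family. Single samples moved the count: 7 members passed without maternal sample 1, where 4823 probe sets passed in all, and none passed without maternal sample 4 or maternal sample 5, where 30 and 60 did.

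**Figure D1:**
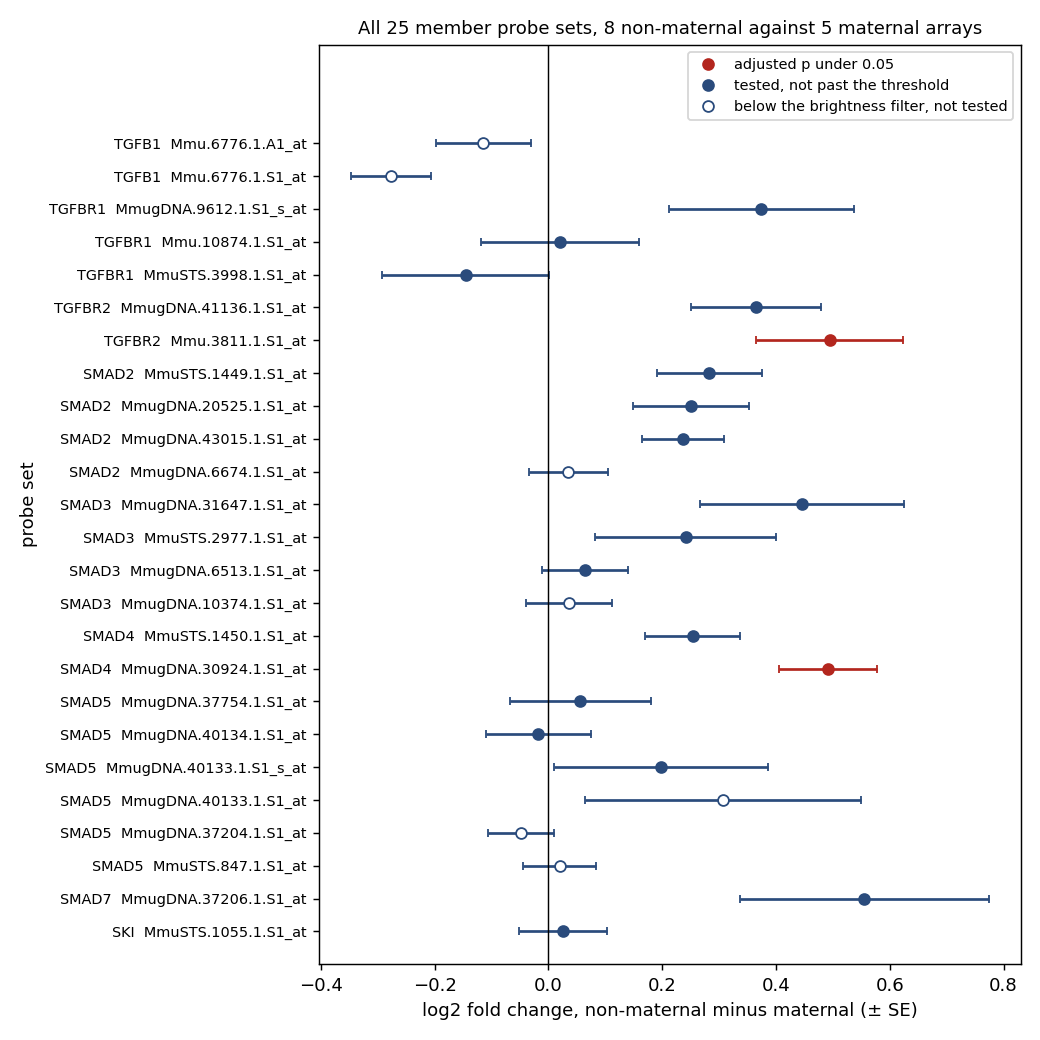
Log2 fold change, non-maternal minus maternal, of all 25 member probe sets with the standard error of the fit as bars, grouped by gene. TGFBR2 at 0.49 and SMAD4 at 0.49 (red) passed the threshold, and open circles mark the 7 probe sets below the brightness filter.

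The ligand TGFB1 was read by 2 dim probe sets, both below the filter. At the dimmer of them the values were 5.57, 5.46, 5.22 and 5.28 in surrogate-peer samples, 5.39, 5.18, 5.30 and 5.31 in peer samples, and 5.61, 5.67, 5.48, 5.75 and 5.57 in maternal samples. Every peer sample lay below every maternal sample, while 1 surrogate-peer sample, at 5.57, lay within the maternal range. Among the probe sets bright enough to be tested, 3.85% had every peer sample below every maternal sample. In a limma fit over all non-control probe sets, the log2 difference between non-maternal and maternal samples was -0.28 ± 0.07 (SE), with an adjusted p of 0.0555. At the brighter of them, with 5.67 to 6.15 over all samples, the difference was -0.11 ± 0.08. Both TGFB1 differences were thus negative, and neither passed.

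TGFBR2 is the receptor that binds the ligand first. At the dimmer of its 2 probe sets the values were 7.79, 8.26, 8.03 and 7.81 in surrogate-peer samples, 8.17, 7.73, 7.98 and 7.94 in peer samples, and 7.71, 7.82, 7.16, 7.34 and 7.33 in maternal samples. Maternal samples 3, 4 and 5 were the 3 lowest of the 13, and of the maternal samples only the second reached into the non-maternal range. Group means were 7.97 ± 0.22 in surrogate-peer, 7.96 ± 0.18 in peer and 7.47 ± 0.28 in maternal samples (SD, n = 4, 4 and 5). The log2 difference, non-maternal minus maternal, was 0.49 ± 0.13 (SE), a 1.41-fold rise (limma, adjusted p = 0.0404). It passed in only 3 of 13 fits that left out 1 sample, those without surrogate-peer sample 1, maternal sample 1 or maternal sample 2, and over all 13 the difference lay between 0.42 and 0.58.

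The brighter TGFBR2 probe set, MmugDNA.41136.1.S1_at, read 10.44, 10.55, 10.46 and 10.44 in surrogate-peer samples, 10.82, 10.42, 10.42 and 10.65 in peer samples, and 10.46, 10.35, 10.17, 10.09 and 9.74 in maternal samples. Maternal samples 3, 4 and 5 were again the 3 lowest of 13, and maternal sample 1 lay within the non-maternal range. The log2 difference of 0.36 ± 0.11 did not pass (limma, adjusted p = 0.0646). Without maternal sample 1 it passed, at 0.44 and an adjusted p of 0.0215.

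**Figure D2:**
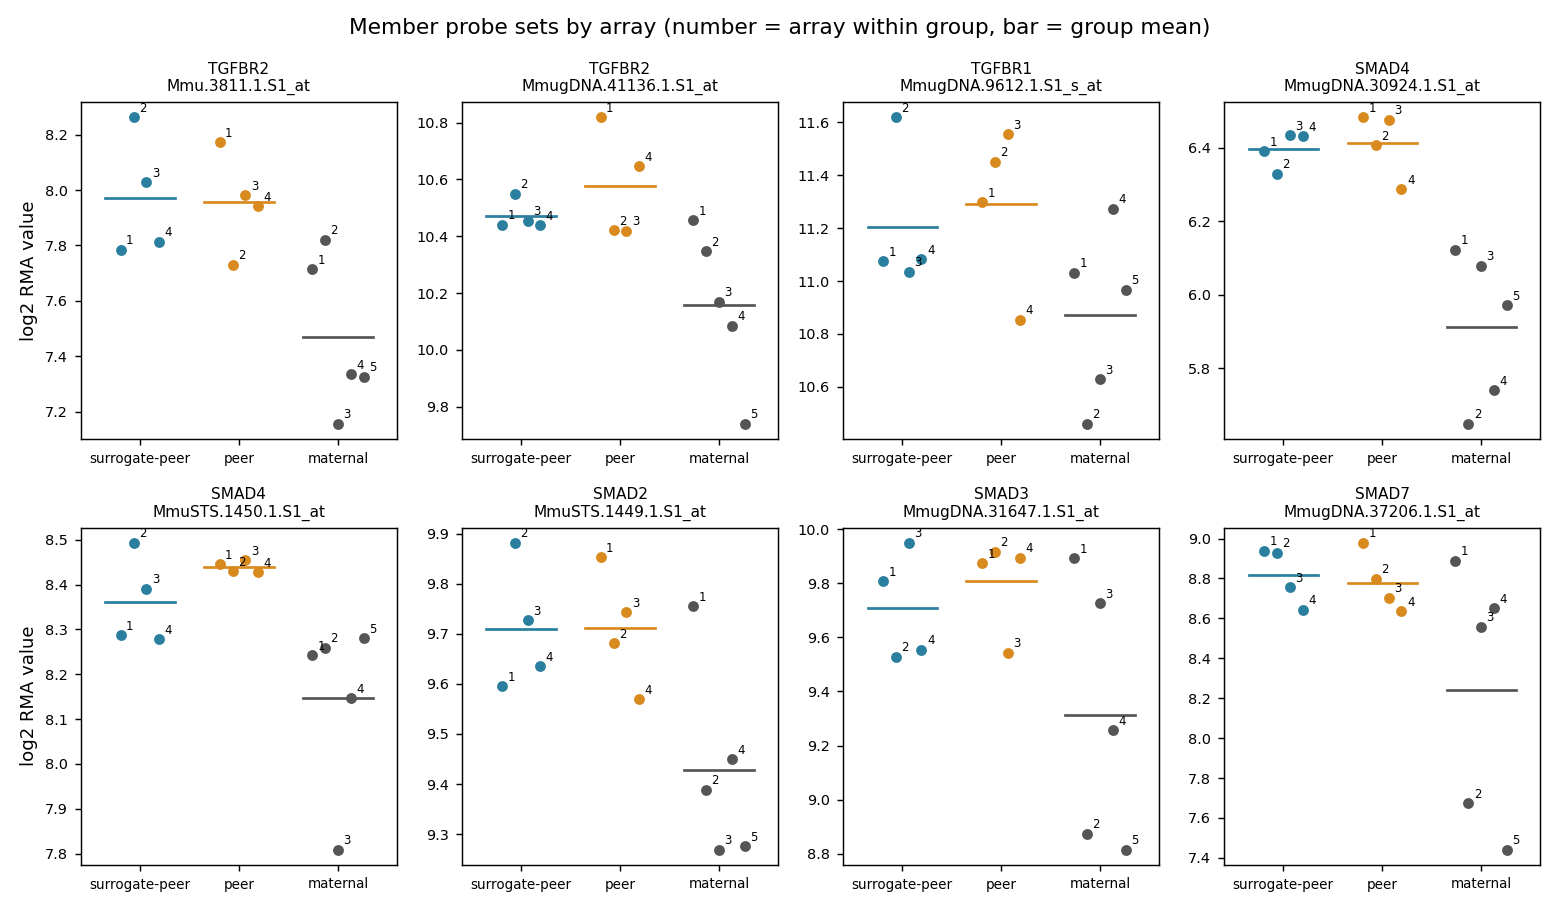
Log2 RMA value of 8 member probe sets in each sample, with the sample's number within its group beside each point and a bar at the group mean; each panel has its own scale, which does not start at 0. At SMAD4 MmugDNA.30924.1.S1_at all 8 non-maternal points lie above all 5 maternal points, and at SMAD3 and SMAD7 maternal samples 2 and 5 lie below all others.

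TGFBR1, the kinase that TGFBR2 activates, was read by 3 tested probe sets that differed in sign. At the brightest, MmugDNA.9612.1.S1_s_at, values were 11.07, 11.62, 11.04 and 11.08 in surrogate-peer samples, 11.30, 11.45, 11.56 and 10.85 in peer samples, and 11.03, 10.46, 10.63, 11.27 and 10.97 in maternal samples. The groups overlapped widely: peer sample 4 lay below maternal samples 1, 4 and 5, and maternal sample 4 lay above surrogate-peer samples 1, 3 and 4. Its log2 difference was 0.37 ± 0.16 (SE), with an adjusted p of 0.150 in limma. The other differences were 0.02 ± 0.14 at the next brightest and -0.15 ± 0.15 at MmuSTS.3998.1.S1_at, with adjusted p-values of 0.928 and 0.520. The readings of TGFBR1 therefore gave no common direction, unlike those of TGFBR2. Per the array maker's naming, the suffix _s_ marks a probe set that can match more than 1 transcript.

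SMAD2 and SMAD3 are the SMADs that the receptors phosphorylate. SMAD2 had 3 tested probe sets, with log2 differences of 0.28 ± 0.09, 0.25 ± 0.10 and 0.24 ± 0.07 (SE) between non-maternal and maternal samples and limma adjusted p-values of 0.0728, 0.128 and 0.0601. At the brightest, MmuSTS.1449.1.S1_at, values were 9.60, 9.88, 9.73 and 9.63 in surrogate-peer samples, 9.85, 9.68, 9.74 and 9.57 in peer samples, and 9.76, 9.39, 9.27, 9.45 and 9.28 in maternal samples. Maternal samples 2 to 5 lay below every non-maternal sample, and maternal sample 1 lay above 6 of the 8. Without maternal sample 1 the difference was 0.36 and passed (adjusted p = 0.0103). At MmugDNA.43015.1.S1_at the surrogate-peer samples, at 6.58 to 6.72, lay above all maternal samples, at 6.20 to 6.46, with peer samples at 6.32 to 6.66. Surrogate-peer samples lay above all maternal samples at 2.96% of all tested probe sets. The dimmest SMAD2 probe set, MmugDNA.6674.1.S1_at, lay below the filter with a difference of 0.04 ± 0.07. The 3 tested SMAD2 probe sets thus differed by nearly the same amount, and none passed in the fit to all 13 samples.

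SMAD3 differences were less alike across its probe sets. At the brightest, MmugDNA.31647.1.S1_at, values were 9.81, 9.53, 9.95 and 9.55 in surrogate-peer samples, 9.87, 9.92, 9.54 and 9.90 in peer samples, and 9.89, 8.87, 9.73, 9.26 and 8.81 in maternal samples. Maternal samples 2 and 5 were the lowest, while maternal samples 1 and 3 lay among the non-maternal samples. The log2 difference was 0.45 ± 0.18 (limma, adjusted p = 0.127), and without maternal samples 2 and 5 it was 0.13. Without maternal sample 1 it passed at 0.59 (adjusted p = 0.0288), and with the number in the sample title as a covariate it was 0.70 (adjusted p = 0.0581). MmuSTS.2977.1.S1_at had a difference of 0.24 ± 0.16 and had the same pair of maternal samples lowest; without them the difference was -4e-04. MmugDNA.6513.1.S1_at, at 0.06 ± 0.08, and the dim MmugDNA.10374.1.S1_at, at 0.04 ± 0.08, differed by no more than their standard errors. No SMAD3 probe set passed in the fit to all 13 samples.

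SMAD4 is the usual shared partner in the signalling SMAD complexes of this family. At MmugDNA.30924.1.S1_at its values were 6.39, 6.33, 6.43 and 6.43 in surrogate-peer samples, 6.48, 6.41, 6.48 and 6.29 in peer samples, and 6.12, 5.65, 6.08, 5.74 and 5.97 in maternal samples. All 8 non-maternal samples lay above all 5 maternal samples. That was the case at 1 of 18 tested members and at 1.89% of all tested probe sets. Means were 6.40 ± 0.05 in surrogate-peer, 6.41 ± 0.09 in peer and 5.91 ± 0.21 in maternal samples (SD, n = 4, 4 and 5). SMAD4 rose by a log2 difference of 0.49 ± 0.09 (SE) in non-maternal samples, or 1.41-fold (limma, adjusted p = 0.0203). It passed in 11 of 13 fits that left out 1 sample, with differences between 0.43 and 0.54, and missed the threshold without maternal sample 4 or maternal sample 5 (adjusted p up to 0.0614). This probe set is dim: its mean over all samples was 6.22, above the filter at 6.04, while its maternal mean was below it. It was tested only because the non-maternal values lifted its mean, so the filter favoured a probe set that is higher there. With no filter, over all 52707 probe sets, it passed as well (adjusted p = 0.0238).

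The brighter SMAD4 probe set, MmuSTS.1450.1.S1_at, read 8.29, 8.49, 8.39 and 8.28 in surrogate-peer samples, 8.45, 8.43, 8.46 and 8.43 in peer samples, and 8.24, 8.26, 7.81, 8.15 and 8.28 in maternal samples. All peer samples lay above all maternal samples, as at 5.63% of all tested probe sets, and the lowest surrogate-peer value lay just under the highest maternal one. The log2 difference, non-maternal minus maternal, was 0.25 ± 0.08 and did not pass (limma, adjusted p = 0.0733). For TGFBR2 and SMAD4 alike, both probe sets had positive differences and the one that passed was the dimmer of the pair.

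SMAD5, which carries BMP signals, showed no called difference at its 3 tested probe sets, whose log2 differences were 0.06 ± 0.12, -0.02 ± 0.09 and 0.20 ± 0.19 (SE) with limma adjusted p-values from 0.493 to 0.908. Among the tested SMAD5 probe sets the widest spread was at MmugDNA.40133.1.S1_s_at, with surrogate-peer samples at 6.77 to 7.92, peer samples at 7.12 to 7.58 and maternal samples at 6.82 to 7.61. Its 3 dim probe sets had differences of 0.31 ± 0.24, -0.05 ± 0.06 and 0.02 ± 0.06.

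SMAD7, the feedback inhibitor of the receptors, had the largest log2 difference of the 25 member probe sets and also the largest maternal spread. Its values were 8.94, 8.93, 8.76 and 8.64 in surrogate-peer samples, 8.98, 8.80, 8.70 and 8.64 in peer samples, and 8.89, 7.67, 8.56, 8.65 and 7.44 in maternal samples. Maternal samples 2 and 5 stood below all other samples, while maternal samples 1 and 4 lay within the non-maternal range. Means were 8.82 ± 0.14 in surrogate-peer, 8.78 ± 0.15 in peer and 8.24 ± 0.64 in maternal samples (SD, n = 4, 4 and 5). The difference of 0.56 ± 0.22 did not pass (limma, adjusted p = 0.120), and without maternal samples 2 and 5 it was 0.10. Without maternal sample 5 alone it was 0.35. It passed at 0.72 without maternal sample 1 (adjusted p = 0.0340) and at 0.97 with the number in the sample title as a covariate (adjusted p = 0.0270). As at SMAD3, the part of that number cannot be fully told apart from that of rearing. For SKI, which represses SMAD-driven transcription, the groups overlapped throughout, with surrogate-peer samples at 6.04 to 6.44, peer samples at 6.19 to 6.32 and maternal samples at 6.09 to 6.30. The SKI difference was 0.03 ± 0.08, with a 95% interval of -0.14 to 0.19.

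**Figure D3:**
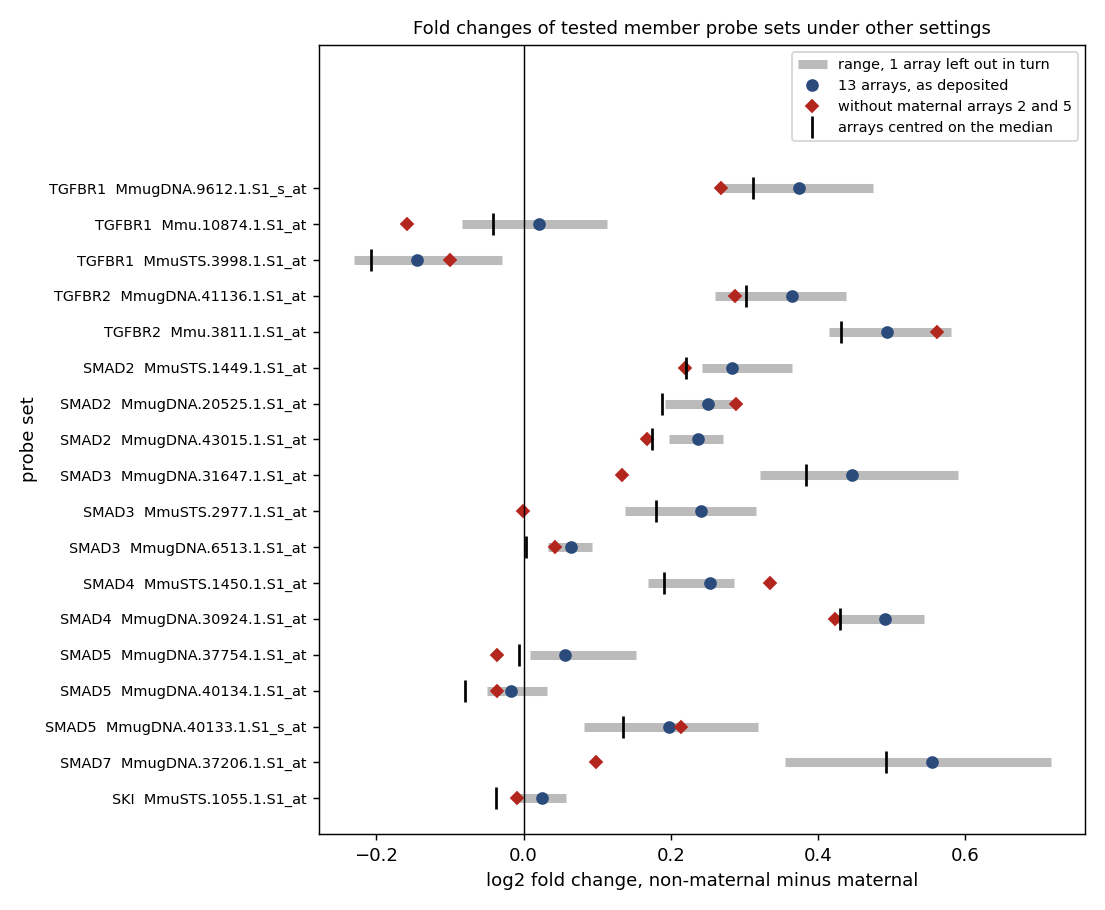
Log2 fold change, non-maternal minus maternal, of the 18 tested member probe sets as deposited (blue), as a range over fits that left out 1 sample each (grey), without maternal samples 2 and 5 (red) and after centring each array on its median (black bar). Without maternal samples 2 and 5, SMAD7 stood at 0.10 and SMAD3 at 0.13 and -4e-04, while SMAD4 stood at 0.42 and 0.33 and TGFBR2 at 0.56 and 0.29.

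Maternal samples 2 and 5 were left out together with their low values at SMAD3 and SMAD7 already known, so the differences of those genes had to shrink. TGFBR2 then had log2 differences of 0.56 and 0.29, SMAD4 of 0.42 and 0.33, and the tested SMAD2 probe sets of 0.22, 0.29 and 0.17. For TGFBR1 the difference was 0.27 at the brightest probe set and -0.16 at the next brightest. No member passed in that fit of 11 samples, in which 37 of all tested probe sets passed. The spread within groups was largest in the maternal group at 12 of 18 tested members.

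Peer and surrogate-peer samples were each also set against the same 5 maternal samples, so these comparisons share their controls. In surrogate-peer samples relative to maternal samples, 0 of 18 members and 0% of all tested probe sets passed in limma, and the smallest member adjusted p was 0.0764, at SMAD4; at an unadjusted p under 0.05 8 members were counted, beside 20.3% of all tested probe sets. In peer samples relative to maternal samples, 0 of 18 members and 0.353% of all tested probe sets passed, and the smallest member adjusted p was 0.0511, at SMAD4; at an unadjusted p under 0.05 7 members were counted, beside 24.9%. SMAD4 at MmugDNA.30924.1.S1_at differed by 0.48 ± 0.10 in surrogate-peer and by 0.50 ± 0.10 in peer samples. The dimmer TGFBR2 probe set differed by 0.50 ± 0.15 in surrogate-peer and by 0.49 ± 0.15 in peer samples. SMAD7 differed by 0.57 ± 0.26 in surrogate-peer and by 0.54 ± 0.26 in peer samples. Every surrogate-peer sample lay above every maternal sample at 2 of 18 members (2.96% of all tested probe sets), and every peer sample did so at 2 of 18 (5.63%). Both counts include SMAD4 at MmugDNA.30924.1.S1_at, as do the counts at an unadjusted p under 0.05. That probe set was tested only through its non-maternal values, so these counts are no support for a difference.

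**Figure D4:**
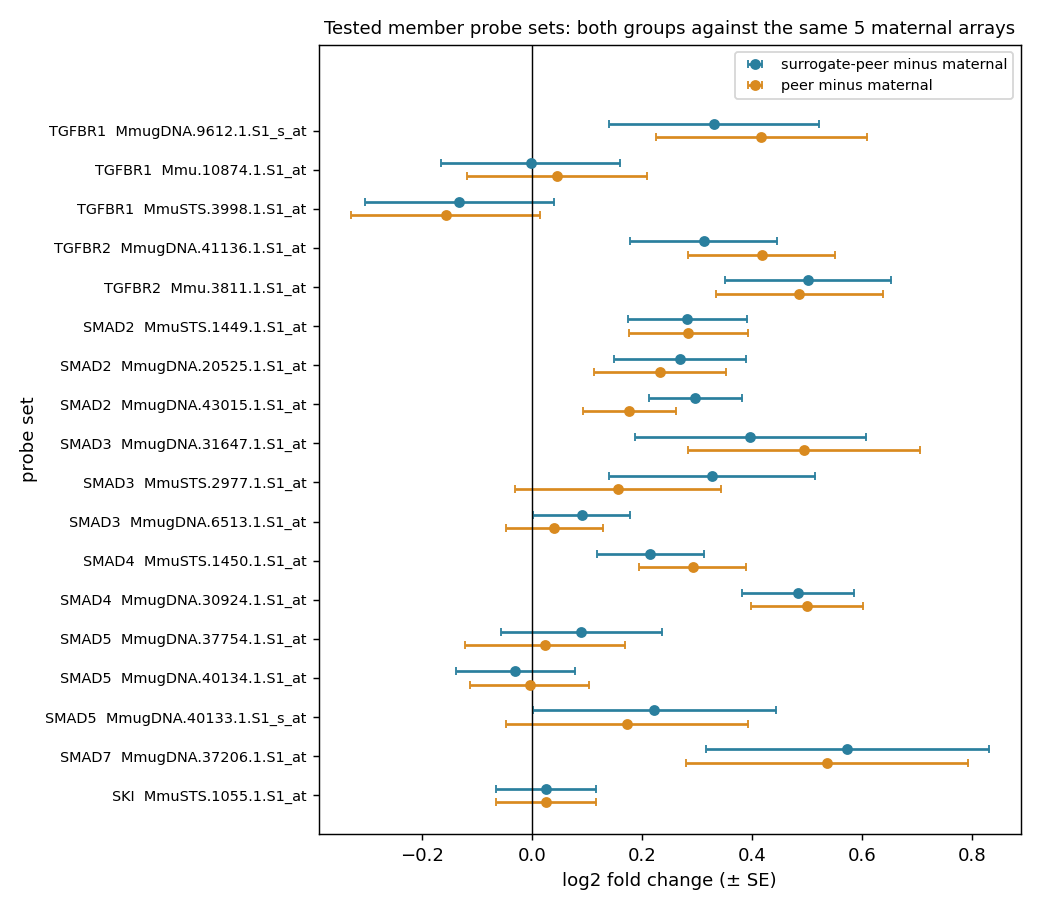
Log2 fold change against the same 5 maternal samples, for surrogate-peer samples (blue) and peer samples (orange), with the standard error of the fit as bars, at the 18 tested member probe sets. The SMAD4 values at MmugDNA.30924.1.S1_at are 0.48 and 0.50, and those of the dimmer TGFBR2 probe set are 0.50 and 0.49.

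Surrogate-peer minus peer, the log2 differences of the tested members lay between -0.11 and 0.17, and 0 of 18 passed, as did 0% of all tested probe sets in limma. At an unadjusted p under 0.05 there were 0 members and 1.83% of all tested probe sets. The 95% intervals were -0.33 to 0.36 for the dimmer TGFBR2 probe set, -0.25 to 0.21 for SMAD4 at MmugDNA.30924.1.S1_at and -0.55 to 0.62 for SMAD7. With 4 samples a group, differences inside these intervals could not be told from none. The F test for any difference among the 3 groups passed at 0 of 18 members and at 0.0873% of all tested probe sets, with a smallest member adjusted p of 0.0662, at SMAD4.

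Markers of the mixed cell types also differed between the groups. A marker score is the mean, over the tested genes of a list, of each gene's log2 deviation from its own mean over the 13 samples. For the T cell list (6 of 12 genes tested) surrogate-peer samples scored 0.02 to 0.42, peer samples 0.02 to 0.20 and maternal samples -0.46 to 0.04. All 6 T cell genes had positive differences and 2 passed in limma. By brightest probe set, 6.3% of 9657 tested genes rose and 1.69% fell past the threshold, and 51% of all tested probe sets were positive. Maternal samples 2, 4 and 5 had the lowest T cell scores, at -0.46, -0.36 and -0.38. Maternal samples 2 and 5, the low samples at SMAD3 and SMAD7, also had the highest monocyte scores (10 of 11 genes tested), at 0.90 and 0.78, against -0.54 to 0.42 in surrogate-peer samples, -0.48 to 0.10 in peer samples and -0.42 to 0.15 in the other maternal samples. In RNA from mixed blood cells, fewer cells of a type and less RNA per cell cannot be told apart.

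On the NK and cytotoxic list (9 of 11 genes tested) surrogate-peer samples scored -0.75 to 0.45, peer samples -0.63 to 0.16 and maternal samples -0.06 to 0.94, with 1 of 9 genes higher and 5 lower in non-maternal samples past the threshold. For this list and those below, the shares over all tested genes were 6.3% higher and 1.69% lower. Among the defining genes, GZMB of cytotoxic cells fell by 1.37 on the log2 scale in non-maternal samples (limma, adjusted p = 0.0203) and FCER1A of dendritic cells and basophils rose by 1.91 (adjusted p = 0.0315). On the dendritic and basophil list (5 of 10 genes tested) 2 genes rose, FCER1A and CPA3, 3 of 5 were positive and the median log2 difference was 0.15. Its scores were -0.25 to 0.60 in surrogate-peer samples, 0.11 to 0.69 in peer samples and -0.93 to 0.09 in maternal samples. None of 4 tested neutrophil genes and none of 3 tested erythroid genes passed, with median differences of -0.27 and -0.10. The other defining genes did not pass: the log2 difference was -0.70 for MS4A1, -0.32 for CD79A, -0.83 for CD14 and -0.03 for the platelet gene PPBP. Of 8 tested B cell genes 1 fell past the threshold and 0 were positive, with a median of -0.72. Of 10 tested monocyte genes 1 fell past the threshold and 2 were positive, with a median of -0.25. Of 9 tested platelet genes 0 passed and 0 were positive, with a median of -0.36. B cell scores (8 of 10) were -1.20 to -0.21 in surrogate-peer samples, -0.28 to 0.50 in peer samples and 0.07 to 0.98 in maternal samples. Platelet scores (9 of 12) were -1.13 to 0.45 in surrogate-peer samples, -0.35 to 0.09 in peer samples and -0.48 to 0.90 in maternal samples. The part of the cell mixture and of RNA quality in the values of the members was not tested.

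**Figure D5:**
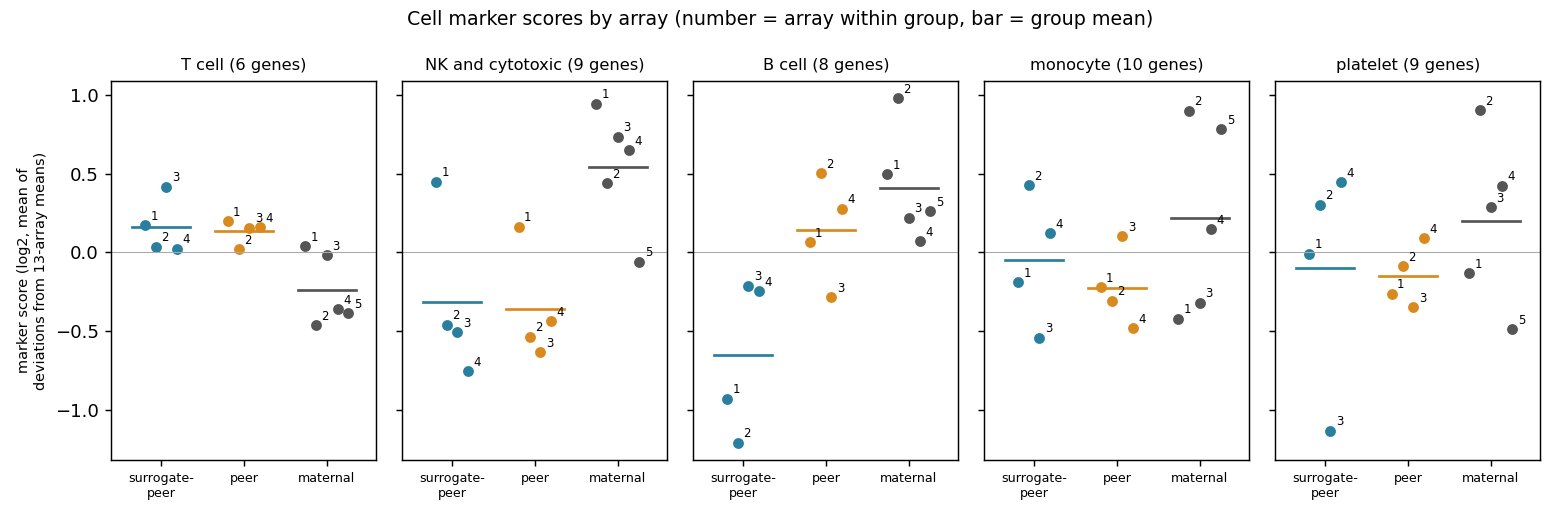
Cell marker score per sample for 5 marker lists, as the mean log2 deviation of the list's tested genes from their own means over 13 samples; numbers mark the sample within its group and bars the group mean. Maternal samples 2 and 5 have the highest monocyte scores, 0.90 and 0.78, and the T cell scores of all 8 non-maternal samples lie above 0.

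Of 100 other genes of the pathway, 78 were on the array with a probe set of their own and 63 were tested by their brightest probe set. In non-maternal samples relative to maternal samples 5 of 63 rose and none fell, where 6.30% of 9657 tested genes rose and 1.69% fell. Their median log2 difference was 0.08, against 0.01 over all tested probe sets, and 36 of 63 were positive. Counting a gene if any of its probe sets passed gave 8 genes, 7 upward and 1 downward. The share of all tested genes under this looser rule was not counted, so the 8 have nothing to be set against. SMURF2, a ubiquitin ligase, rose by 0.44 at 1 probe set. PPM1A, a SMAD phosphatase, rose by 0.57 at its dimmest probe set, while its brighter ones differed by 0.14, -0.12 and -0.002 and did not pass. PPP1CA, a catalytic subunit of protein phosphatase 1, fell by 0.30 at 1 of its dimmer probe sets (limma, adjusted p = 0.0475). With 1 sample left out the count by brightest probe set ran from 0, without peer sample 1, maternal sample 4 or maternal sample 5, to 16, without maternal sample 1. None of the 63 passed in surrogate-peer relative to maternal samples (0% of tested genes), in peer relative to maternal samples (0.166% rose) or in surrogate-peer relative to peer samples (0%). The lists were drawn up with earlier results of these data known.

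Among ligands and genes that handle the latent ligand, 1 of 8 tested genes rose, beside 6.3% of all tested genes. That gene was NRROS, which holds latent TGF-beta1 on the surface of myeloid cells, with group means of 10.68 ± 0.19 in surrogate-peer, 10.65 ± 0.16 in peer and 10.11 ± 0.27 in maternal samples (SD) and a log2 difference of 0.55 ± 0.12 (SE; limma, adjusted p = 0.0252). Of 8 genes in this group 3 were positive, and their median was -0.10. None of 6 other receptors and co-receptors passed, and 1 of 6 was positive. The smallest p-values there were those of ACVR1B, an activin receptor, at -0.24 ± 0.07 (adjusted p = 0.0614), and ENG, a co-receptor, at -0.18 ± 0.09 (adjusted p = 0.228). None of 4 other SMADs and adaptors passed, with TGFBRAP1, a receptor-associated protein, at 0.17 ± 0.08 and STRAP, which helps SMAD7 hold the receptor, at 0.28 ± 0.13.

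Among corepressors and coactivators 2 of 10 rose and 9 of 10 were positive, with a median of 0.16. Beside them, 6.3% of all tested genes rose and 51% of all tested probe sets were positive. This list too was drawn up with earlier results of these data known. RUNX1, a transcription factor that binds SMADs, averaged 9.20 ± 0.07 in surrogate-peer, 9.19 ± 0.06 in peer and 8.73 ± 0.33 in maternal samples, and its log2 difference was 0.47 ± 0.12 (limma, adjusted p = 0.0377). Its 7 probe sets differed in sign. This value is from the brightest, and the other tested ones had negative differences of -0.405, -0.17 and -0.17 that did not pass. CBFB, the partner subunit of the RUNX proteins, rose by 0.44 ± 0.11 (adjusted p = 0.0352). Both genes act in much else besides TGF-beta signalling.

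Among ubiquitin ligases, proteases and phosphatases 1 of 13 rose, beside 6.3% of all tested genes. WWP1, a ubiquitin ligase that targets TGFBR1 together with SMAD7, averaged 10.46 ± 0.04 in surrogate-peer, 10.30 ± 0.04 in peer and 9.94 ± 0.23 in maternal samples, with all non-maternal samples at 10.26 to 10.51 above all maternal samples at 9.72 to 10.23. Such a gap, with the non-maternal samples higher, was seen at 1.89% of all tested probe sets. The log2 difference of WWP1 was 0.44 ± 0.09 (limma, adjusted p = 0.0231), and another WWP1 probe set passed too, at 0.40. None of 9 non-SMAD kinases passed, with MAP3K7, which TGFBR1 activates through TRAF6, at 0.46 ± 0.14 (adjusted p = 0.0630) and ROCK2 at 0.16 ± 0.06.

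Among target genes 1 of 14 rose, beside 6.3% of all tested genes, and 8 of 14 were positive, beside 51% of all tested probe sets. MYC, which TGF-beta represses in many epithelial cells, averaged 11.00 ± 0.19 in surrogate-peer, 11.13 ± 0.19 in peer and 10.23 ± 0.58 in maternal samples, with a log2 difference of 0.83 ± 0.21 (limma, adjusted p = 0.0355). The highest maternal value of MYC, 10.94, lay just inside the non-maternal range of 10.85 to 11.41. MYC has many other inputs, and the list as a whole had a median of 0.05.

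The genes whose pattern over the 13 samples lay nearest to a member were found by the mean absolute distance between log2 deviations, among 14394 named probe sets. For TGFBR2 at its brighter probe set they were MRPS28, PRPF38A, MRPL32, POLR2K and IFT74, at distances of 0.05 to 0.06, where TGFBR2 itself deviated from its mean by 0.18 on average. For SMAD3 they were CHIC1, JMY, SLF2, TOX and PBRM1, at 0.07 to 0.08 against an own deviation of 0.30. For SMAD7 they were RFX7, HIVEP2, DHX58, NFATC3 and CKAP5, at 0.12 to 0.13 against 0.32, and for SKI they were ACTR3B, NFATC1, RAB7A, CSNK2A2 and ATP5MG, at 0.04 to 0.05 against 0.09. None of these 20 nearest genes was another member. From TGFBR2, 6.33% of the candidates lay nearer than SMAD2 at MmuSTS.1449.1.S1_at and 9.93% lay nearer than the other TGFBR2 probe set. From SMAD3 at its brightest probe set, 9.96% lay nearer than SMAD7, and from SMAD7, 2.07% lay nearer than that SMAD3 probe set. The other tested SMAD3 probe sets stood at 18.1% and 41.1% from SMAD7. Some members lay far apart: from TGFBR2, 76.1% to 81.6% of the candidates lay nearer than the TGFBR1 probe sets. From SMAD4 at MmuSTS.1450.1.S1_at, 84.5% lay nearer than SMAD7. By this share other pairs ranked closer: 0.139% of the candidates lay nearer to SMAD4 at MmuSTS.1450.1.S1_at than SMAD2 at MmugDNA.20525.1.S1_at did, and 0.243% lay nearer to the brightest TGFBR1 probe set than that SMAD2 probe set did. The distance itself was larger for this TGFBR1 pair, at 0.16, than for TGFBR2 and SMAD2 at MmuSTS.1449.1.S1_at, at 0.13.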

How the data were processed

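RNA of PBMC from 13 rhesus macaques was hybridised to 1 array each. The authors deposited log2 expression values per probe set made with RMA, per the submitters' processing notes; the sources used here do not give its version, settings or annotation, or whether all arrays were normalized together. The log2 scale was read from the values. Of 52865 probe sets, 158 controls (AFFX and reporter genes) were left out, and probe sets with a mean over 13 arrays above the median of means, 6.04, were tested (26352). Symbols came from the platform annotation, updated through RefSeq gene identifiers, and only for probe sets with 1 symbol (24956). Precision is limited by the number of arrays.

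Contrasts were fitted with limma 3.58.1 in R 4.3.3 (lmFit and eBayes, all 13 arrays in 1 fit, no covariates, tested on simulated data). Non-maternal is the average of both other group means. Two-sided p-values were adjusted with the Benjamini-Hochberg method across all tested probe sets, with a threshold of 0.05. Probe sets below the filter have values from a fit over all 52707. All groups share 1 estimate of the spread, although maternal values varied most at many probe sets; variance weights per group were an alternative. The members and all lists were chosen with earlier results of these data known. All members were named; of other pathway genes, up to 6 per role that passed, otherwise the 2 with the smallest p; of markers, the list scores and defining genes; and for TGFBR2, SMAD3, SMAD7 and SKI the 5 nearest genes. Alternatives were other filters, normalizations, weights, variance priors, covariates (the number in each sample title) and samples. Promoter and protein sequences were not used here.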

Additional observations from a re-analysis of the deposited data

Results flagged for a closer look

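In 9 of 75 combinations of probe set and group, 1 sample stood apart from its group by more than Dixon's 95% limit, where chance gives about 5%. Surrogate-peer sample 2 read 11.62 at TGFBR1 MmugDNA.9612.1.S1_s_at, against 11.04 to 11.08 in the rest of its group, and 10.55 at TGFBR2 MmugDNA.41136.1.S1_at, against 10.44 to 10.46. Surrogate-peer sample 3 read 8.18 at SMAD3 MmuSTS.2977.1.S1_at, against 7.67 to 7.71.

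Peer sample 3 was low at SMAD3 MmugDNA.31647.1.S1_at, with 9.54 against 9.87 to 9.92, and at SMAD5 MmugDNA.40133.1.S1_s_at, with 7.12 against 7.54 to 7.58. Peer sample 1 read 4.73 at the dim SMAD3 MmugDNA.10374.1.S1_at, against 4.93 to 4.95, and peer sample 4 read 3.91 at the dim SMAD5 MmuSTS.847.1.S1_at, against 3.78 to 3.79. Maternal sample 3 was low at SMAD2 MmugDNA.20525.1.S1_at, with 8.53 against 8.78 to 8.88, and at SMAD4 MmuSTS.1450.1.S1_at, with 7.81 against 8.15 to 8.28. Maternal samples 2 and 5 at SMAD7 were not among these, since they were low together.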

How the results depend on the processing

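No paired analysis was possible because the sample numbers follow accession order and carry no pairing. The counts of passing probe sets moved widely with the setting, and the cause was not tested. The number in the sample title differed between the groups, so in fits with it as a covariate its part cannot be fully told apart from that of rearing. For non-maternal minus maternal (2107 with all samples), 1337 passed after quantile normalization, 1367 with variance weights per group, 37 without maternal samples 2 and 5, and 30 to 4823 with 1 sample left out. Of member probe sets (2), 1 passed under array quality weights, median centring, no filter, quantile normalization, the stricter filter and group weights, 5 with the number in the sample title as a covariate, 0 without maternal samples 2 and 5, and 0 to 7 with 1 left out. Of pathway genes (5), 8 passed after centring and 8 when any probe set counted (1 of them downward), 10 with title number, 0 without maternal samples 2 and 5, and 0 to 16 with 1 left out.

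For surrogate-peer minus maternal (0), 33 passed after centring, 25 after quantile normalization, 7 with title number, 1 without a filter, 1 without maternal samples 2 and 5, and 0 to 2095 with 1 left out; member probe sets ran 0 to 4 and pathway genes 0 to 5. For peer minus maternal (93), 1543 passed under array weights, 1187 under group weights, 1819 with title number, 59 with a trended robust prior, 50 without a filter, 6 after quantile normalization, 5 after centring, 3 without maternal samples 2 and 5, 1 under the stricter filter, 0 when only both groups entered and 0 to 3484 with 1 left out. There, 1 member probe set passed under array weights, 1 under group weights, 2 with title number and 0 to 5 with 1 left out, and 4, 3 and 4 pathway genes under array weights, group weights and title number, with 0 to 10 when 1 was left out. For the F test (23), 749 passed with title number, 15 without a filter, 4 under array weights, 3 under group weights, 1 without maternal samples 2 and 5, 0 after centring, quantile normalization or the stricter filter, and 0 to 2318 with 1 left out.

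Over all alternatives, fits without 1 sample included, members changed sign 23 times at 6 probe sets for non-maternal minus maternal, 24 at 6 for peer minus maternal, 17 at 5 for surrogate-peer minus maternal and 49 at 15 for surrogate-peer minus peer. Without maternal samples 2 and 5 the next brightest TGFBR1 probe set stood at -0.16, against 0.02 with all samples (non-maternal minus maternal), and SMAD3 at MmuSTS.2977.1.S1_at at -0.09, against 0.16 (peer minus maternal). Of single members, SMAD3 at MmuSTS.2977.1.S1_at turned to -4e-04 without maternal samples 2 and 5 (non-maternal minus maternal), and SMAD3 at MmugDNA.6513.1.S1_at turned to -0.0257 with title number (surrogate-peer minus maternal). SMAD4 at MmugDNA.30924.1.S1_at passed in 7 of 8 alternatives that kept it, while the stricter filter left it out. Alternatives that reused the main filter kept it only through its non-maternal values, so passing in them is no support for a difference. The dimmer TGFBR2 probe set passed in 3 of 9, missing after centring (adjusted p = 0.0549), quantile normalization (0.0607) and group weights (0.0548) in limma. Centring used array medians over the tested probe sets, which were higher in non-maternal samples. It moved the median difference of all tested probe sets from 0.01 to -0.06 and the upward share of calls from 83.1% to 56.7% (66.3% after quantile normalization). Signal near background limits TGFB1 and the dim SMAD4 probe set.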
